A study of Mus musculus with 28 samples.

Results

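Class I odorant receptor genes, the older of the odorant receptor classes of vertebrates, lie together on mouse chromosome 7. They were taken here as the protein-coding RefSeq genes whose symbol is Olfr followed by a digit in a 4 Mb window of chromosome 7 (build mm10), which starts 0.477 Mb before the first of them and ends 0.631 Mb after the last. This gave 125 genes of 21778 protein-coding genes, and 1 gene of the span is not reported here. The first was Olfr543 (102476773 to 102477902) and the last Olfr692 (105368328 to 105369317). The nearest receptor genes outside were Olfr521, 2.23 Mb before the window, and Olfr693, 0.678 Mb after it. All other protein-coding receptor genes, 983 in number, are called class II. The data are lists of peaks from chromatin immunoprecipitation and sequencing (ChIP-seq), a method that maps where a protein sits on DNA, in sorted mouse olfactory neurons.

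Lhx2 KO Ldb1 (2 libraries) came from mature olfactory sensory neurons of the genotype OMP-IRES-Cre; Lhx2 fl/fl; Rosa-CAG-tdtom +/fl, in which Cre is driven by Omp, a gene of mature neurons, so that the deletion comes only with maturation. Olfr1507 Ldb1 (2 libraries) came from Olfr1507+ cells of M28-IRES-GFP mice, that is, from neurons sorted on 1 class II receptor. Control Ldb1 (3 libraries), Rad21 (2) and CTCF (2) came from mature olfactory sensory neurons of OMP-IRES-GFP mice. No ages are given for these mice, and whether replicate libraries are separate animals is not stated in the labels. The tests thus take libraries, not animals, as units, and the spread between libraries may be technical. The other 17 of the 28 samples were not analysed here. All groups are mixtures of many neurons, except that each Olfr1507 neuron was sorted on the same receptor, and binding in few cells cannot be told apart from weak binding in many.

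Each olfactory neuron expresses 1 allele of 1 receptor gene. Class II genes are switched on with the help of enhancers within receptor clusters that carry Lhx2, Ebf factors and the cofactor Ldb1, while class I genes are used mostly by neurons of the dorsal epithelium, under a long-range enhancer known as the J element and with the transcription factor Bcl11b acting on the choice between the classes. Ldb1 binds no DNA itself, Rad21 belongs to cohesin, the ring complex that extrudes chromatin loops, and CTCF is the DNA-binding protein at which cohesin often stops. The position of the J element is not given in the sources used here, and none of the sites below was matched to it. Peak lists carry no expression, so the cell type could be checked only through peaks at marker genes: control Ldb1 had a region within 10 kb of 39.6% of all protein-coding genes, and of 6 of 6 markers of mature olfactory neurons (Omp, Gnal, Adcy3, Cnga2, Stoml3, Rtp1), of 0 of 3 sustentacular markers (Cyp2g1, Ermn, Sox2) and of 1 of 3 basal markers (Krt5 among Krt5, Krt14 and Trp63). Lhx2 KO Ldb1 had a region near 1 of the 6 mature markers (Gnal), and Olfr1507 Ldb1, Rad21 and CTCF near 6 of 6. Rad21 and CTCF also had one near 2 of the 3 sustentacular markers (Ermn and Sox2). Over all protein-coding genes the shares were 1.53% for Lhx2 KO Ldb1, 11.6% for Olfr1507 Ldb1, 31.6% for Rad21 and 56.5% for CTCF.

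The sequences that bear on the results are promoter windows from the RefSeq table of GRCm38.p6. Each runs from 250 bases before to 50 bases after an annotated start and is printed on the strand of the gene. Such a start can lie inside the gene span used for distances. The window of Olfr550 (102578219 to 102578518, plus strand) lies within its gene (102571431 to 102579662). The window of Cnga4, a subunit of the cyclic nucleotide-gated channel of olfactory neurons, is shown because it lies inside a strong Ldb1 site just after the receptors. Olfr692, the last receptor, is shown for its 2 copies of TAATTA, the homeodomain core that factors such as Lhx2 recognise, here in capitals. Olfr545 and Olfr547 stand on either side of the strongest Ldb1 site among the receptors, and Olfr556 is the receptor nearest to any Ldb1 region.

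Cnga4 (chr7:105404318-105404617, plus strand): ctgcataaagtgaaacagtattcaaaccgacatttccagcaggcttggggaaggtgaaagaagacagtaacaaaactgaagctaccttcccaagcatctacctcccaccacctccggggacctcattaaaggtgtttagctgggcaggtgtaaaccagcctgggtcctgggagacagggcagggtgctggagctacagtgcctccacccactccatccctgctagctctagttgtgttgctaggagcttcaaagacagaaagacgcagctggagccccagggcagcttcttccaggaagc
Olfr692 (chr7:105368078-105368377, plus strand): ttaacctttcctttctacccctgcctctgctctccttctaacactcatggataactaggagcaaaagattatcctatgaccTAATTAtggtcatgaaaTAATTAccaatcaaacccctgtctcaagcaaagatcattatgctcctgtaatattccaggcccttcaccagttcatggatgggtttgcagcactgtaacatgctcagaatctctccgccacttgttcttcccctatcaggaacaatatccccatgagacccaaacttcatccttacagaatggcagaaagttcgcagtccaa
Olfr545 (chr7:102494724-102495023, minus strand): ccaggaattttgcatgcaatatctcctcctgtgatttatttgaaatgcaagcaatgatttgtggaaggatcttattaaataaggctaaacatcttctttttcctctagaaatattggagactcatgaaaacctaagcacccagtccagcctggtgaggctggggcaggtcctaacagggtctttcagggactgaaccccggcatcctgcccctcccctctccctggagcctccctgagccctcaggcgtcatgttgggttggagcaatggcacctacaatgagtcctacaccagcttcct
Olfr547 (chr7:102534499-102534798, plus strand): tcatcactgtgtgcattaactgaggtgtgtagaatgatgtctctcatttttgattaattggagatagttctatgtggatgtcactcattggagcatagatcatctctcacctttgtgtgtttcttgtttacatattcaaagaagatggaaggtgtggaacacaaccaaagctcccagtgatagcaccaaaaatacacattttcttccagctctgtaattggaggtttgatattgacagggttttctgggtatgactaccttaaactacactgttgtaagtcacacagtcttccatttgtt
Olfr556 (chr7:102669651-102669950, plus strand): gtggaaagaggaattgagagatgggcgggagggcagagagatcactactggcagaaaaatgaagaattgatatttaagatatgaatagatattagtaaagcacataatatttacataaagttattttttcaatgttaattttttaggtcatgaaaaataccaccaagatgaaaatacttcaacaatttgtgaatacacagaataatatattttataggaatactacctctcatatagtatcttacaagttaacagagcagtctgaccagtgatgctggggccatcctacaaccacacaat

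These windows must be read with the gene models in mind. The 125 genes had a median annotated length of 957 bases, from 927 bases for Olfr624 to 18751 bases for Olfr78, and 91 were at most 1000 bases long, about the size of a receptor's single coding exon. Of the 108 class I genes with a window in the table (86.4%), 81 had ATG at the annotated start, so that the window lies before the coding start and not before a known start of transcription. The strands were evenly split, with 54 windows on each. A peak of any of the 11 libraries touched the window of 0 of 108 class I genes, 4 of 835 class II genes (0.479%) and 6247 of 17491 protein-coding genes (35.7%), the last including the receptors. Among the other genes of the 4 Mb, 16 of 49 had a peak at the window, and at Cnga4 peaks of 6 libraries did so. TAATTA, searched on both strands, was found in the windows of 16 of 108 class I genes (14.8%), 160 of 835 class II genes (19.2%) and 5.37% of all genes. The palindrome of Ebf factors, TCCC and GGGA with any 2 bases between them, was found in 0 class I windows, 5 class II windows (0.599%) and 1.12% of all. The median GC content was 37.3% in class I, 35% in class II and 56.3% in all windows. These counts describe letters in a window and say nothing about binding.

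Most sites of the 4 Mb lay outside the receptors. The window held 4 and 0 peaks of the Lhx2 KO lists, 3 and 15 of the Olfr1507 lists, 22, 21 and 13 of the control Ldb1 lists, 14 and 39 of the Rad21 lists and 31 and 40 of the CTCF lists. The lists themselves held 4290 and 542, 5095 and 21250, 24877, 28879 and 16067, 10487 and 28151, and 27609 and 34210 peaks in the same order, and no read numbers, so depth is unknown. Per Mb, Rad21 had 3.5 and 9.75 peaks in the 4 Mb, close to its 3.94 and 10.6 over the span of annotated genes. Control Ldb1 had 5.5, 5.25 and 3.25 per Mb there, against 9.35, 10.9 and 6.04 over that span. Peaks that overlap by at least 1 base were joined into 68 sites, of which 14 had a peak of only 1 library. In the 0.477 Mb before Olfr543 there were 25 sites and in the 0.631 Mb after Olfr692 there were 30. The 2.55 Mb of both receptor runs held fewer. The first run (Olfr543 to Olfr650-ps1, 1.73 Mb, 91 receptor genes) held 9 sites and the second (Olfr651 to Olfr692, 0.816 Mb, 34 receptor genes) held 3. The stretch between the runs, 0.346 Mb of Trim genes, held 1.

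**Figure D1:**
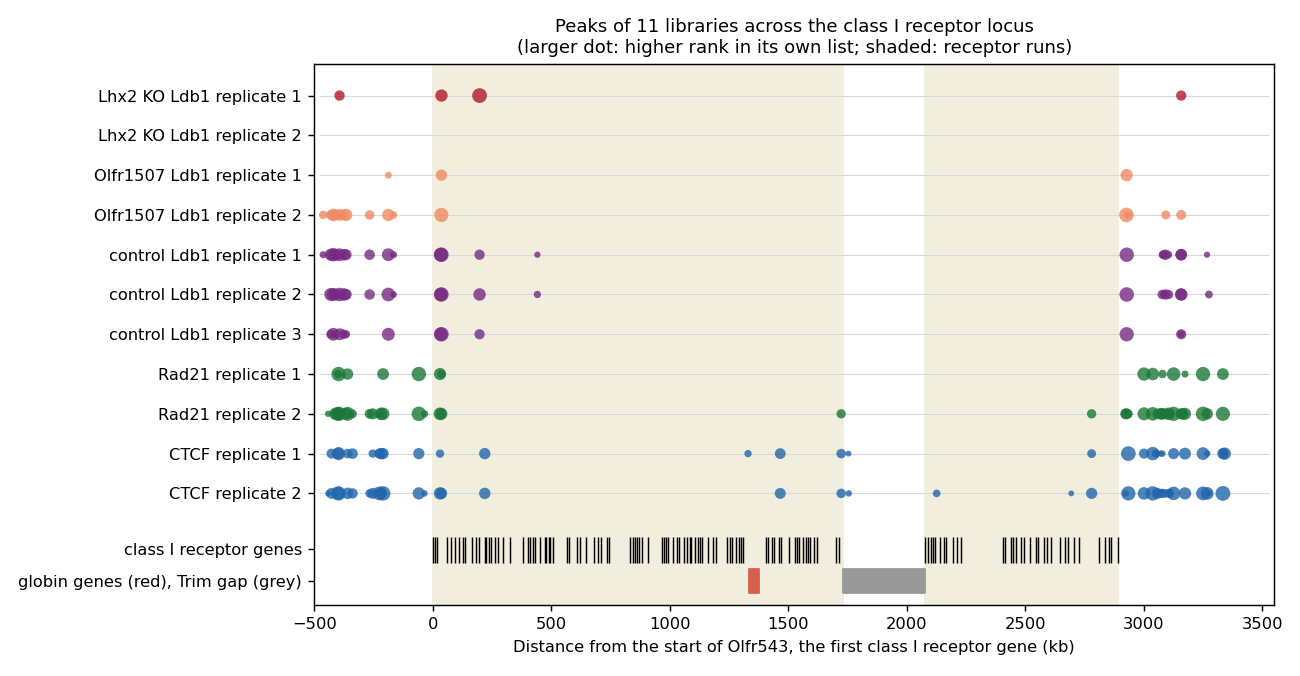
Peaks of the 11 libraries (rows) along the locus, in kb from the start of Olfr543; a larger dot stands for a higher rank within its own list, shading marks both receptor runs, black ticks the 125 class I genes, the red bar the globin genes and the grey bar the Trim gap. Ldb1 dots crowd outside the receptors and at the first receptor genes, and control Ldb1 shows none between 441 kb and the end of the second run, while 3 CTCF sites lie in the second run.

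Joined peaks that came from 2 or more libraries of the same group are called a region. Control Ldb1 had 20 regions in the 4 Mb, with 9 before the receptors, 4 in the first run, 0 in the Trim gap, 0 in the second run and 7 after. Olfr1507 Ldb1 had 3, with 1 before, 1 in the first run and 1 after. Rad21 had 13, with 5 before, 2 in the first run and 6 after. CTCF had 28, with 10 before, 4 in the first run, 1 in the Trim gap, 1 in the second run and 12 after. Lhx2 KO Ldb1 had 0 regions in the whole locus, since the second KO list had no peak there. The globin genes Hbb-bt, Hbb-bs, Hbb-bh2, Hbb-bh1 and Hbb-y, which sit inside the first receptor run and are used in blood cells, had 0 peaks over their 0.0407 Mb. The nearest was a peak of CTCF replicate 1 alone, 5.27 kb from Hbb-bt.

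The Ldb1 sites among the receptors were clustered at their start. Between Olfr545 and Olfr547, control Ldb1 bound 2 neighbouring sites. The stronger (chr7:102512901-102513418, 18.1 kb after Olfr545 and 21.3 kb before Olfr547) ranked 1724 of 24877, 2107 of 28879 and 1068 of 16067 in the control Ldb1 lists, that is, within the first 6.93%, 7.3% and 6.65%. It had a peak in 9 of the 11 libraries. In Lhx2 KO replicate 1 it ranked 1522 of 4290 (35.5%), and Lhx2 KO replicate 2 had no peak. In the Olfr1507 lists it stood at 47.7% and 10.1%, in the Rad21 lists at 76.5% and 41.8%, and in CTCF replicate 2 at 47%, with no peak in CTCF replicate 1. The score behind each rank is the authors' own value per peak, and ranks from lists of different lengths cannot show whether binding changed.

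The weaker neighbour (chr7:102509930-102510268, 15.2 kb after Olfr545) ranked within the first 14.3%, 18.2% and 20.1% of the control Ldb1 lists. No library of any other group had a peak there. Another site, 12.1 kb after Olfr545 (chr7:102506857-102507205), carried Rad21 at 37.3% and 29.9% of its lists and CTCF at 77.7% and 35.3%, and no Ldb1 peak. The 3 sites spanned 6.56 kb of the stretch between Olfr545 and Olfr547, 1 with Rad21 and CTCF, 1 with control Ldb1 alone and 1 with all 3 proteins. Olfr544 and Olfr545, both receptors of carboxylic acids, stood 21.6 and 15.2 kb from the nearest control Ldb1 region.

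The only control Ldb1 region of all 3 libraries within 10 kb of a class I gene lay 2.39 kb after Olfr556 and 3.91 kb from Trim68, a ubiquitin ligase gene (chr7:102673311-102673672). It was of middling rank in control neurons, at 59.1%, 33.8% and 59.6% of the lists, and had no Olfr1507, Rad21 or CTCF peak. In Lhx2 KO replicate 1 it ranked 65 of 4290 (1.52%), the best rank of any KO peak in the locus, and Lhx2 KO replicate 2 had no peak. The deposited score was 29 in Lhx2 KO replicate 1 and 20, 50 and 19 in the control Ldb1 lists. The unit of the score is not stated and depth is unknown, so neither rank nor score can show whether binding changed. Among all control Ldb1 regions whose mean rank was past the first 40% of the lists, 1133 of 14279 (7.93%) had a peak in Lhx2 KO replicate 1, and 6 (0.042%) had one within its first 2%, this site among them. That comparison was chosen after the values were seen, and it rests on 1 KO library.

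**Figure D2:**
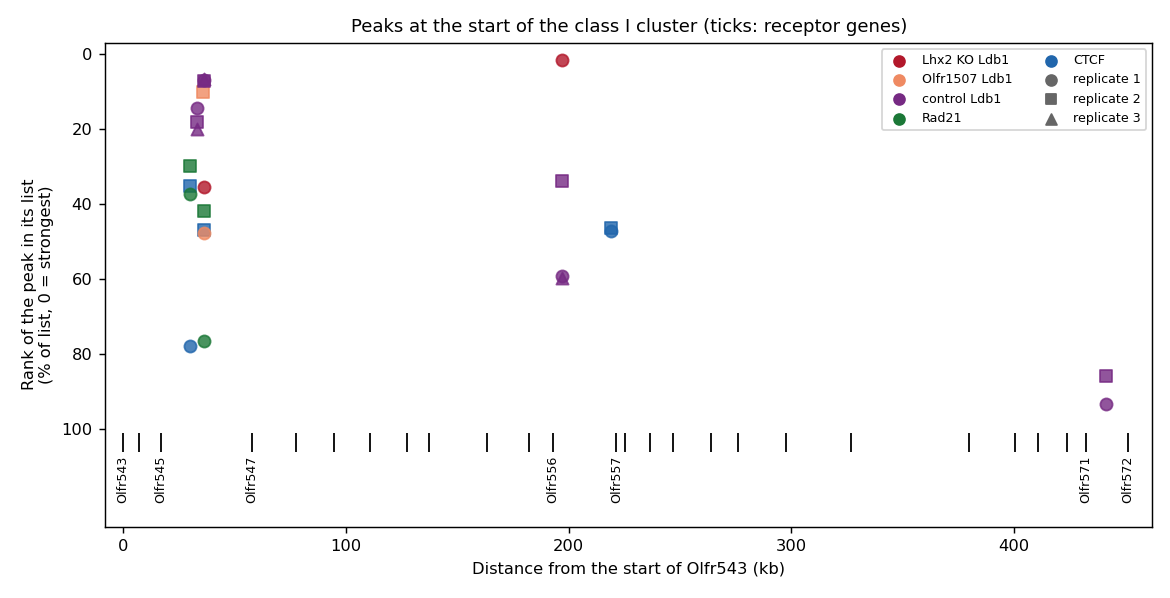
Peaks over the first receptor genes, in kb from the start of Olfr543, against the rank of the peak in its own list in percent (0 is the strongest, at the top); colours mark groups, symbols the replicates and ticks the receptor genes. At 36.1 kb the 3 control Ldb1 peaks lie between 6.65% and 7.3%, and the Lhx2 KO peak at 197 kb lies at 1.52%, above the 3 control peaks at the same place. Ranks from lists of different lengths cannot show whether binding changed.

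Farther along, Ldb1 thinned out. A weak region (chr7:102917559-102917900) lay between Olfr571 and Olfr572, 7.72 and 9.73 kb from them, at 93.3% and 85.8% of control Ldb1 replicates 1 and 2 and with no peak in replicate 3. From there to position 105404282 no control Ldb1 region was found over 2.49 Mb, which hold 100 of the 125 class I genes (80%), from Olfr572 to Olfr692. No peak of any single control Ldb1 library lay in that stretch either. Counted by receptor genes it was the second of 125 stretches without a control Ldb1 region that hold receptor genes, after 4.32 Mb of chromosome 2 with 187 class II genes, and by length it was the fourth. The place by genes depends on cluster size, and large class II clusters had such stretches too. The chromosome 2 stretch held 187 of the 222 coding receptor genes of its cluster. The next held 66 of 95 on chromosome 9, 50 of 58 on chromosome 10 and 41 of 63 on chromosome 19.

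For the other groups the longest empty stretch differed. Without an Olfr1507 Ldb1 region there were 2.89 Mb with 122 class I genes, and without a Rad21 region 2.96 Mb with 122 class I genes, both starting after the strong site before Olfr547. Rad21 replicate 2 alone had peaks inside the Rad21 stretch, and its own longest stretch without a peak was 1.69 Mb with 88 class I genes. CTCF left 1.25 Mb with 66 class I genes, from Olfr557 to Olfr632. In the first run CTCF had regions 2.45 kb before Olfr557 (47.1% and 46.3% of its lists), 3.47 kb from Olfr633 (53.8% and 51.9%) and 9.64 kb from Olfr649 (66.5% and 67.7%), all of middling rank. In the second run its 1 region stood 31.1 kb from Olfr688 (72.9% and 48.7%), and in the Trim gap a weak one lay in Trim6 (96.1% and 92.4%).

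Beyond the last receptor the signal returned at Cnga4. Its site (chr7:105404250-105404629, over the promoter window printed above and 34.9 kb after Olfr692) ranked within the first 7.01%, 5.78% and 8.49% of the control Ldb1 lists and at 36.5% and 3.89% of the Olfr1507 lists. Rad21 replicate 2 had a peak there at 49.5%, and neither KO library, neither CTCF library and not Rad21 replicate 1 had one. The strongest CTCF peaks within 100 kb of the receptors followed 3.11 kb from Cnga4, at 2.98% and 9.22% of the CTCF lists. On the other side the last Rad21 and CTCF region before the receptors lay 58.9 kb before Olfr543, within Stim1, a calcium sensor gene, at 7.34% and 5.45% of the Rad21 lists and 48.8% and 35.9% of the CTCF lists.

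The 10 class I genes with any peak within 10 kb, 8% of 125, were Olfr556, Olfr557, Olfr558, Olfr571, Olfr572, Olfr632, Olfr633, Olfr649, Olfr655 and Olfr685. The share was 11.7% for class II genes and 75.2% for all protein-coding genes. The genes are short and share sites, so they are not replicates. Olfr655 and Olfr685 had a peak of CTCF replicate 2 alone. A peak inside the gene body was found in 0 class I genes and in 8 class II genes. Within 50 kb, 48 class I genes (38.4%) had a peak of some library, against 33.9% of class II and 86.2% of all genes, and 77 had none.

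By group, 0 class I genes had an Lhx2 KO Ldb1 region within 10 kb, against 1.53% of all genes and 0.203% of class II genes. Lhx2 KO replicate 1 alone had a peak near Olfr556. For Olfr1507 Ldb1 the count was 0, against 11.6% of all genes and 0.916% of class II. Control Ldb1 regions lay near 3 class I genes (2.4%), Olfr556, Olfr571 and Olfr572, against 39.6% of all genes and 7.12% of class II genes. For Olfr571 and Olfr572 this was 1 and the same weak region. Rad21 regions were near 0, against 31.6% of all genes and 1.63% of class II. CTCF regions were near 5 (4%), Olfr557, Olfr558, Olfr632, Olfr633 and Olfr649, from 3 regions, against 56.5% of all genes and 3.46% of class II. By single library within 10 kb, the count of class I genes was 1 and 0 in Lhx2 KO (15.2% and 2.12% of all genes) and 0 and 0 in Olfr1507 Ldb1 (11.6% and 36.4% of all genes). It was 3, 3 and 1 in control Ldb1 (43.5%, 47.5% and 29.1% of all genes), 0 and 1 in Rad21 (32.7% and 60.3%) and 5 and 7 in CTCF (58.8% and 66.6%). For every group the class I share of regions was thus below that of all genes. Against class II genes it was lower for Ldb1 and Rad21 and slightly higher for CTCF, differences that were not tested. By library this order turned for CTCF replicate 1 (4% of class I, 4.27% of class II) and Lhx2 KO replicate 1 (0.8% and 0.712%). With a class II share of only 0.203%, the Lhx2 KO region count of 0 says nothing particular about class I genes.

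Within 50 kb the order was similar. Lhx2 KO Ldb1 regions were near 0 class I genes, against 3.58% of all genes and 3.46% of class II. Peaks of Lhx2 KO replicate 1 alone were near 12 (9.6%, against 29.3% of all and 6.41% of class II). Those of replicate 2 were near 0 (4.83% of all and 3.97% of class II). Olfr1507 Ldb1 regions were near 6 (4.8%, against 22.9% of all and 7.53% of class II), namely Olfr543, Olfr544, Olfr545, Olfr547, Olfr549 and Olfr692. Control Ldb1 regions were near 21 (16.8%, against 62.5% of all and 22.4% of class II). The list adds to those 6 the genes around Olfr556 (Olfr554 to Olfr559 with Olfr33) and around Olfr571 (Olfr568 to Olfr576). Rad21 regions were near 5 (4%, against 56.7% of all and 6.21% of class II), all from Olfr543 to Olfr549. CTCF regions were near 22 (17.6%, against 78% of all and 13.1% of class II).

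**Figure D3:**
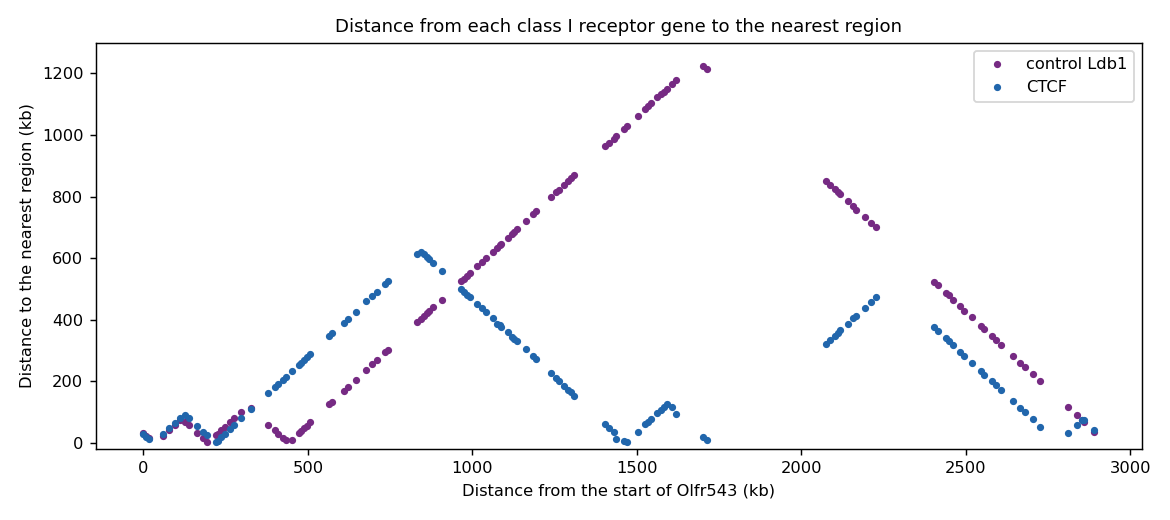
Distance in kb from each of the 125 class I genes to the nearest control Ldb1 region and the nearest CTCF region, plotted against the position of the gene in kb from the start of Olfr543. The control Ldb1 points climb to 1224 kb at Olfr648, whereas the CTCF points stay at or under 621 kb.

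The distance to the nearest region was also taken gene by gene. The median distance to a control Ldb1 region was 428 kb for class I genes (2.39 kb for Olfr556 to 1224 kb for Olfr648) and 176 kb for class II genes. More than 500 kb separated 56 of 125 class I genes (44.8%) and 20% of class II genes from one. For CTCF the medians stood the other way, at 221 kb for class I genes and 317 kb for class II genes, and 9 class I genes (7.2%) and 34.3% of class II genes were farther than 500 kb. The median for Rad21 was 698 kb in class I and 460 kb in class II, and for Olfr1507 Ldb1 699 kb and 429 kb. Neighbouring genes share their nearest region, so these values are given with no test.

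Receptors of carboxylic acids, the ligands best known for this class, were looked up as a list. Of these 6 receptors, none lay within 10 kb of a control Ldb1 region (0 of 6), where the share was 2.4% of class I genes and 39.6% of all genes, so that this count says nothing particular about them. Olfr558 had a CTCF region at 6.55 kb. Olfr78, a receptor of short-chain acids also found in the kidney and the carotid body, was 67 kb from a control Ldb1 region and 45 kb from a CTCF region. Olfr690 and Olfr691, near the end of the second run, were 74 and 66.6 kb from the Ldb1 region at Cnga4.

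The other genes of the 4 Mb were counted in the same way, beside the shares of all protein-coding genes. These were 39.6% for control Ldb1, 31.6% for Rad21, 56.5% for CTCF, 11.6% for Olfr1507 Ldb1 and 1.53% for Lhx2 KO Ldb1. The 5 globin genes had 0 regions of any group. Of 13 Trim genes, 2 had Ldb1 of control neurons within 10 kb (Trim68 and Trim3), 1 a Rad21 region (Trim3) and 3 a CTCF region (Trim68, Trim6 and Trim3). Of the 41 other neighbours, 17 had a control Ldb1 region (41.5%), 16 a Rad21 region (39%) and 23 a CTCF region (56.1%), near the shares of all genes, while 3 had an Olfr1507 Ldb1 region and 0 an Lhx2 KO Ldb1 region. Among 15 regulators of receptor choice elsewhere in the genome, 14 had a control Ldb1 region (93.3%), all but Lbr, a nuclear envelope protein that tethers heterochromatin. Bcl11b had 4 such regions, Ebf2 had 28 and Nfia and Nfib had 8 each. Of these 15 genes, 3 had an Lhx2 KO region, 12 an Olfr1507 region, 12 a Rad21 region and 14 a CTCF region. Gene length was not taken into account in these counts.

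Peak density in the class I cluster was then set against that in class II clusters of the same library. A cluster was a run of 3 or more receptor genes, pseudogenes included, in which no gap was over 300 kb, and 100 kb of flank was added at each end. Class I made 2 runs of 2.95 Mb in all with 42.4 coding receptor genes per Mb, and class II made 41 clusters of 35.6 Mb with 27.1 per Mb. In control Ldb1 the class I cluster had 5, 5 and 4 peaks (1.7, 1.7 and 1.36 per Mb) and the class II clusters 174, 195 and 120 (4.89, 5.48 and 3.37 per Mb). All 3 libraries were lower in class I, by a log2 ratio of -1.51 ± 0.19 (SD, n = 3; exact sign-flip permutation p = 0.25, two-sided, the smallest that 3 libraries allow). The class II clusters themselves were below the 9.35, 10.9 and 6.04 peaks per Mb over the span of all annotated genes.

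For Olfr1507 Ldb1 the class I cluster had 0.679 and 1.02 peaks per Mb and the class II clusters 1.07 and 3.57 per Mb (log2 ratio -1.23 ± 0.82, SD, n = 2). Rad21 had 1.02 and 3.05 peaks per Mb in class I and 2.89 and 4.78 in class II (-1.08 ± 0.61, SD, n = 2). CTCF had 3.05 and 4.41 peaks per Mb in class I and 6.04 and 6.77 in class II (-0.80 ± 0.26, SD, n = 2). Each of these 3 had the exact sign-flip permutation p of 0.5, the smallest that 2 libraries allow. In Lhx2 KO replicate 1 the values were 0.679 per Mb in class I and 1.07 in class II, and in replicate 2 they were 0 and 0.534. Every library was thus lower in the class I cluster, in designs too small to pass a threshold of 0.05.

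The direction for CTCF, 1 Rad21 library and 1 Lhx2 KO library depended on the flanks. With the 100 kb flanks left out, control Ldb1 kept its lower density in class I (4, 4 and 3 peaks, 1.57, 1.57 and 1.18 per Mb in class I, log2 ratio -1.14 ± 0.13, SD, n = 3). CTCF then had 6 and 8 peaks in class I and was higher there in both libraries (0.41 ± 0.18, SD, n = 2), and the Rad21 libraries went opposite ways, at -0.53 and 0.34. Lhx2 KO replicate 1 had 2 peaks in class I, 0.785 per Mb, against 0.694 per Mb in class II (0.18), and replicate 2 had 0 against 0.475. Over the whole 4 Mb, with its bound neighbours, the ratio was 0.02 for control Ldb1, 0.65 for Rad21 and 0.46 for CTCF.

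**Figure D4:**
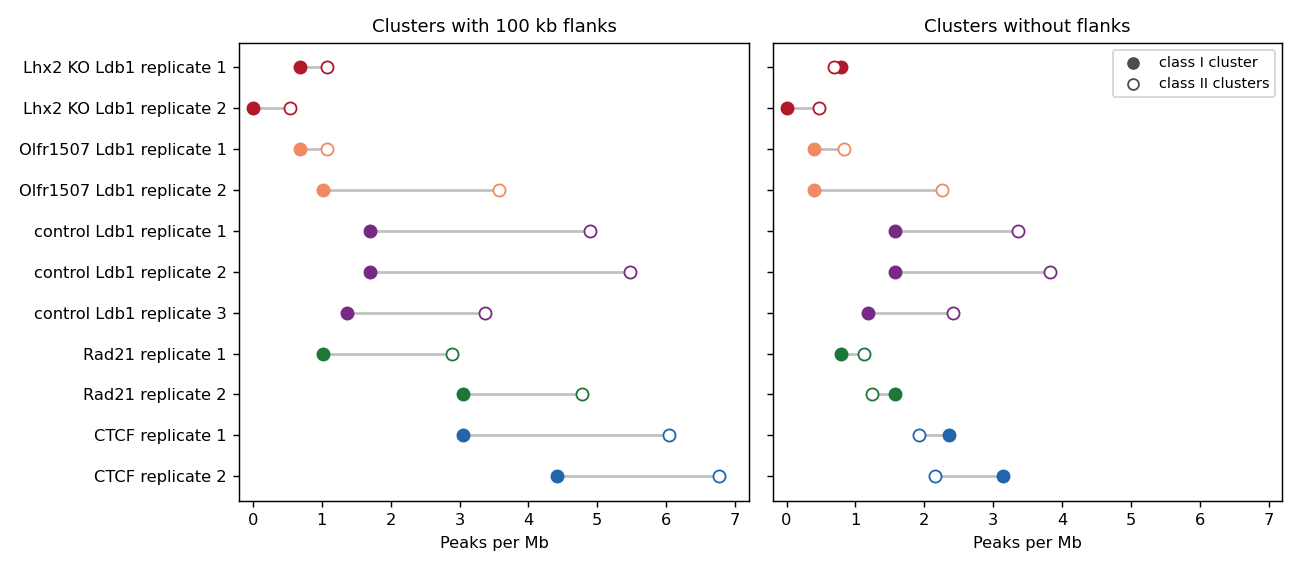
Peaks per Mb in the class I cluster (filled circles) and in the class II clusters (open circles) for each of the 11 libraries, with 100 kb flanks on the left and without flanks on the right. Filled circles lie left of the open ones in every row with flanks, and without flanks both CTCF libraries, Rad21 replicate 2 and Lhx2 KO replicate 1 turn round while the 3 control Ldb1 and both Olfr1507 libraries do not.

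Regions were counted over the clusters too, first with flanks. Control Ldb1 regions numbered 5 in the class I cluster (1.7 per Mb) and 162 in class II clusters (4.55 per Mb), a ratio of 0.373. Of the 41 class II clusters, 35 had more control Ldb1 regions per Mb than class I and 6 had fewer. For Olfr1507 Ldb1 26 had more and 15 fewer, for Rad21 28 and 13, and for CTCF 29 and 12. The fixed flanks weigh more in short clusters, and cluster length was not taken into account. The class II clusters richest in coding receptor genes mostly stood nearer to class I. Control Ldb1 had 0.569 regions per Mb on chromosome 2 (222 genes) and 2.24 on chromosome 9 (95 genes). It had 4.36 on chromosome 19 (63 genes) and 2.11 on chromosome 10 (58 genes). There were 25 class I receptor genes and 5.96 class II receptor genes for each control Ldb1 region. The corresponding numbers were 62.5 and 25.4 for Olfr1507 Ldb1, 41.7 and 12.5 for Rad21, and 15.6 and 5.3 for CTCF. Without flanks, class I had 1.57 control Ldb1 regions per Mb against 3.18 in class II, and 0.393 Olfr1507 Ldb1 regions against 0.84. The order turned for Rad21, with 0.785 against 0.584 per Mb, and for CTCF, with 1.96 against 1.46 per Mb. With flanks again, 2 of the 5 control Ldb1 regions in class I were among the strongest 10% of all control Ldb1 regions. In class II it was 29 of 162 (17.9%). The 2 were the region before Olfr547 and the one at Cnga4, which lies in the flank after the last receptor.

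**Figure D5:**
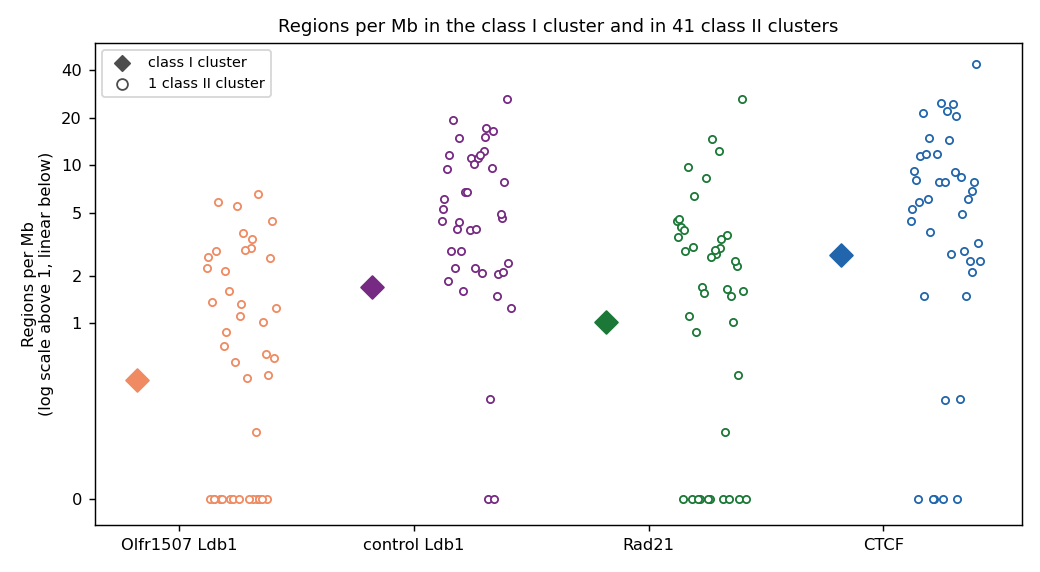
Regions per Mb in the class I cluster (diamonds) and in each of 41 class II clusters (circles, spread sideways for legibility) for 4 groups; the axis is logarithmic above 1 and linear below. All clusters include their 100 kb flanks, which weigh more in short clusters. The class I diamond lies under most circles in each group, with 35 of 41 circles above it for control Ldb1.

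Loss of Lhx2 was examined through the share of each list that fell in the 4 Mb, since the KO lists were short. The share was 0.0932% and 0% in the Lhx2 KO libraries and 0.0884%, 0.0727% and 0.0809% in control Ldb1. The groups overlapped in order, with 1 KO library above all control libraries and 1 below. The means were 0.0466% ± 0.0659 in Lhx2 KO (SD, n = 2) and 0.0807% ± 0.0079 in control (SD, n = 3), a difference of -0.0341 percentage points (exact permutation p = 0.5, adjusted over 4 comparisons 0.5, two-sided, smallest possible 0.1). At the mean control share, lists as long as those of the KO would hold 3.46 and 0.437 peaks, and they held 4 and 0. A difference was thus not detectable with lists of this length, and its direction turned within the class I cluster alone (0.00254 percentage points), without Lhx2 KO replicate 2 (0.0126) and among the top 500 peaks of each list (0.1).

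The KO peaks of replicate 1 lay at the strong site before Olfr547, at the site after Olfr556, at the promoter window of Trpc2, an ion channel gene of vomeronasal neurons, in the flank before the receptors and in Arfip2 in the flank after them. Of the control Ldb1 regions, 2 of 5 in the class I cluster had a peak in Lhx2 KO replicate 1, as did 31 of 162 in class II clusters (19.1%) and 2888 of 22789 overall (12.7%). Lhx2 KO replicate 2 had a peak at 0, 19 and 494 of them.

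In Olfr1507 neurons, which use a class II receptor, the share in the locus was 0.0589% and 0.0706%, below every control library. The means were 0.0647% ± 0.0083 in Olfr1507 Ldb1 (SD, n = 2) and 0.0807% ± 0.0079 in control Ldb1 (SD, n = 3), a difference of -0.016 percentage points (exact permutation p = 0.2, adjusted 0.4). Within the class I cluster alone the difference turned, to 0.00592 percentage points. The 2 class I cluster sites with an Olfr1507 region were the strong sites before Olfr547 and at Cnga4. This and the Lhx2 comparison share the 3 control libraries.

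Between proteins, control Ldb1 lists put a smaller share of their peaks in the locus (0.0807% ± 0.0079, SD, n = 3) than CTCF lists, with 0.112% and 0.117% (0.115% ± 0.0033, SD, n = 2), with no overlap between the groups and an exact permutation p of 0.1, the smallest possible (adjusted 0.4). This separation needed whole lists. With the top-scoring 50% of each list, the difference shrank from -0.0339 to -0.00969 percentage points (exact permutation p = 0.7). Rad21 lists put 0.133% and 0.139% there (0.136% ± 0.0036, SD, n = 2), above both CTCF lists, with an exact permutation p of 0.333, the smallest possible (adjusted 0.444). This order turned within the class I cluster alone (-0.00501 percentage points) and among the top 500 peaks of each list (-0.1). Of the regions behind these shares, 16 of 20 for control Ldb1, 11 of 13 for Rad21 and 22 of 28 for CTCF lay before Olfr543 or after Olfr692.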

How the data were processed

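ChIP-seq peak lists of 11 libraries were used. Per the labels' protocols, fixed and sorted cells were sonicated and libraries made from immunoprecipitated DNA (antibodies: anti-CTCF from Millipore, anti-Rad21 from Abcam, anti-Ldb1 from Santa Cruz). Tools named in the submitters' processing notes, without their roles, are HOMER 4.7, Picard, SAMtools 1.3.1, Bowtie2 2.3.2, STAR 2.5.3a and cutadapt 1.9.1, with build mm10. How peaks were thresholded, against which control and with which filters is not given in the sources used here. Lists were made per library. Every peak carries a score, deposited by the authors in a unit that is not stated, and ranks were made from it in each list apart. Depth is unknown.

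Genes came from RefSeq GRCm38.p6. Regions needed peaks of at least 2 libraries joined by 1 base. Densities and shares were computed in Python 3.11.15 with pandas 2.3.3 and numpy 2.4.6, tested by exact permutation over libraries and checked on simulated peaks. Shares were adjusted by the Benjamini-Hochberg method over 4 comparisons. The planned protein features were not computed, as no protein table was used here.

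Members, lists and tests were chosen with earlier results of these data known. Named genes are class I genes with a peak within 10 kb, 6 receptors of carboxylic acids, the first and last member, the genes nearest to regions, and the globin, Trim, neighbour and regulator lists. Genes named for a promoter window (Trpc2, Olfr547), for an extreme length or distance, or within 50 kb of a region were chosen after their values were seen. Other settings changed flanks, locus, list length, region rule, libraries and the replicate block. For 2 RNA samples the labels disagree, and they were given no group.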

Additional observations from a re-analysis of the deposited data

Results flagged for a closer look

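Without the 100 kb flanks, the log2 ratio of class I to class II peak density was below 0 in every control Ldb1 library (-1.1, -1.29 and -1.03) and above 0 in both CTCF libraries (0.28 and 0.55). This opposite direction of all libraries of both groups is what drew attention. The difference, control Ldb1 minus CTCF, was -1.55 (exact permutation p = 0.1, two-sided, the smallest that 3 against 2 libraries allow; means -1.14 ± 0.13, n = 3, and 0.41 ± 0.18, n = 2, SD). The test was chosen after seeing the data, and the ratios rest on 3 or 4 class I peaks in each control Ldb1 library and on 6 and 8 in the CTCF libraries. The order of the groups also depended on low-scoring peaks where the flanks were kept. With the top-scoring 50% of each list, CTCF stood at -1.45 (SD 0.863) and control Ldb1 at -1.15 (SD 0.252). With whole lists and flanks they stood at -0.801 and -1.51. The ratio without flanks was not computed for the top-scoring 50%.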

How the results depend on the processing

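Of 122 alternative values, 92 did not turn direction and, for counts, stayed within 1.5 times, 10 turned direction and 20 counts moved by more. The 92 include the difference of 0 for Olfr1507 minus control among the top 500 peaks, which has no direction. The density log2 ratio turned when clusters were redrawn: over the whole 4 Mb it was 0.0186 for control Ldb1, 0.652 for Rad21 and 0.461 for CTCF, and without flanks 0.414 for CTCF. With a library left out it ranged from -1.81 to -0.653 for Olfr1507 Ldb1, -1.61 to -1.42 for control Ldb1, -1.51 to -0.645 for Rad21 and -0.984 to -0.618 for CTCF. The difference in share of the list (percentage points) turned within the gap-rule cluster to 0.00254 for Lhx2 KO minus control, 0.00592 for Olfr1507 minus control and -0.00501 for Rad21 minus CTCF. Among the top 500 peaks it was 0.1 for Lhx2 KO minus control and -0.1 for Rad21 minus CTCF, the value of 1 peak in 1 library. For Lhx2 KO minus control it ranged from -0.0807 to 0.0126 with a library left out, and 0.0126 was the value without Lhx2 KO replicate 2. The range was for Olfr1507 minus control from -0.0218 to -0.0101, for control Ldb1 minus CTCF from -0.0378 to -0.0299 and for Rad21 minus CTCF from 0.0189 to 0.0239. The cause was not tested.

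Groups share replicate numbers, but the labels do not tie them to a shared animal, batch or day. With the replicate block the differences were -0.034 for Lhx2 KO (exact permutation p = 1), -0.0158 for Olfr1507, -0.034 for control Ldb1 minus CTCF and 0.0214 for Rad21 minus CTCF (p = 0.5 each, the smallest 2 pairs allow), and no call changed.

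Class I genes with a region within 10 kb and 50 kb depended on the region rule. With a peak of 1 library enough they were 1 and 12 for Lhx2 KO and 1 and 9 for Rad21, and 39 within 50 kb for CTCF. With a peak in every library they were 1 and 13 for control Ldb1. With the top-scoring 50% of each list they were 0 and 6 for control Ldb1 and 2 and 8 for CTCF. With a library left out they ranged within 10 kb from 0 to 1 for Lhx2 KO, 1 to 3 for control Ldb1, 0 to 1 for Rad21 and 5 to 7 for CTCF, and within 50 kb from 0 to 12, 13 to 21, 5 to 9 and 26 to 35 in the same order. Where 1 of 2 libraries is left out a region is a peak of the other. Whether list length or the spread between libraries sets these counts was not tested.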
